A study of Drosophila simulans x Drosophila sechellia and Drosophila simulans x Drosophila mauritiana and Drosophila mauritiana x Drosophila simulans with 63 samples.

Results

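Genes that cause lethality or sterility in hybrids between *Drosophila* species were followed through single embryos of 3 closely related species and of their hybrids. The genes were taken by name from a list of 6 known hybrid incompatibility genes, *Hmr*, *Lhr*, *gfzf*, *OdsH*, *Nup160* and *Nup98-96*. Of these, 5 were found in all 3 deposited tables, among 10464 genes that the tables share, and *OdsH* was not analysed here. The rule used their names and no measured value, although earlier results of these data were known when the list was drawn up.

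*Hmr* (*Hybrid male rescue*) and *Lhr* (*Lethal hybrid rescue*) encode proteins that bind each other and the heterochromatin protein HP1, and both are needed for the death of hybrid sons of *D. melanogaster* mothers and *D. simulans* fathers. The gene *gfzf* encodes a protein with zinc fingers and a glutathione S-transferase domain and was found as a further partner in the same lethality. *Nup160* and *Nup98-96* encode parts of the nuclear pore, the channel between nucleus and cytoplasm, and the *D. simulans* forms of Nup160 and Nup96 kill hybrids that carry them in a partly *D. melanogaster* background. *OdsH* is a homeobox gene known for male sterility in hybrids of *D. simulans* and *D. mauritiana*. None of the crosses described here involved *D. melanogaster*.

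The series held 63 embryos, each sequenced alone as polyadenylated RNA. *D. simulans* (*sim*), *D. sechellia* (*sec*) and *D. mauritiana* (*mau*) were each represented by 3 embryos at stage 2, when the RNA is that laid down by the mother, and 3 embryos at late stage 5, after the zygotic genome has been switched on. These 18 parental embryos came from 1 laboratory stock per species, of which those of *D. simulans* and *D. mauritiana* carry a *white* allele, and their sex is not labelled. At stage 2 the hybrid RNA came from hybrid mothers: daughters of a cross such as *sim* x *mau*, with the female named first, were mated back to males of their own mother's species, which is written (*sim* x *mau*) x *sim*. There were 3 such embryos for each of (*sim* x *mau*) x *sim*, (*mau* x *sim*) x *mau*, (*sim* x *sec*) x *sim*, (*sec* x *mau*) x *sec* and (*mau* x *sec*) x *mau*. At stage 5 the embryos were themselves the hybrid offspring of *sim* x *mau*, *mau* x *sim*, *sim* x *sec*, *sec* x *mau* and *mau* x *sec*, with 6 embryos per cross, labelled XX or XY. A cross of *D. sechellia* females with *D. simulans* males was not among them. All flies were kept at 25 degrees and the egg-laying females were 4 to 14 days old. No treatment was given to any group.

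For each embryo the tables give a value for the allele of either species, built from reads over sites at which the species differ and scaled to be comparable between embryos. These are called normalized values below. Each hybrid embryo has a value for either allele, their sum is its total, and the level of a parental embryo is the value of its own species' allele. Reads assigned to alleles came to between 1914846 and 7044646 per embryo, and 1 read was worth between 0.471 and 2.40 units of the normalized value. A value also scales with the number of variant sites, so it may be compared between embryos of 1 table but neither between genes nor between tables. Every library was mapped to the genomes of both species of its pair. The main mapping was that to *D. simulans* where this species was in the pair and to *D. sechellia* for *sec* and *mau*, and the mapping to the second genome is given beside it where it differs.

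The members lie on 4 chromosome arms. In the *D. simulans* assembly r2.02 the tables place *Hmr* on X at 9942383 to 9942678, *Lhr* on 2R at 13971031 to 13972272, *Nup160* on 2L at 10781836 to 10782035, *gfzf* on 3R at 2898886 to 2899681 and *Nup98-96* on 3R at 19157294 to 19158019. Each interval is a single exon of the gene as the tables list it. In the *D. mauritiana* assembly MS17 the listed exon of *Hmr* is at 9770701 to 9771092 on X, and in the *D. sechellia* assembly r1.3 it is on scaffold_15 at 1189369 to 1189882. *Hmr* is the only X-linked member. In the table of *sim* and *mau*, mapped to *D. simulans*, allele calls rested on 20 variant sites for *Lhr*, 35 for *gfzf*, 69 for *Nup160*, up to 74 for *Nup98-96* and up to 86 for *Hmr*.

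The tables were uneven for 2 members. *Hmr* had 0 sites in either table mapped to *D. sechellia*, so that its values for *sec* and *mau* came from the mapping to *D. mauritiana*, with 39 to 41 sites. *gfzf* was listed at 0 in all 6 *D. simulans* parental embryos of the table with *D. sechellia* when mapped to *D. simulans*, although its *D. simulans* allele was read in every hybrid of that table. It shared this with 148 genes in all, itself included, and its comparisons with *D. simulans* parents there were made in the mapping to *D. sechellia*, on 22 sites. Reads of parental embryos assigned to the wrong species stayed at or below 1% for all members with one exception. In *D. simulans* embryos mapped to *D. mauritiana*, 3.79% of *Hmr* reads were given to the *D. mauritiana* allele.

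Embryos labelled XY carry a single, maternal X, so the paternal share of reads from X-linked zygotic genes tests the labels. It was 46.1% to 52.2% in the embryos labelled XX and 0.063% to 0.627% in those labelled XY in 4 of the 5 crosses. In *mau* x *sec* 3 of 6 labels went against it: replicates 2 and 3, labelled XY, stood at 50.4% and 50.8%, and replicate 4, labelled XX, at 0.59%. *Hmr* at stage 5 in this cross is therefore given embryo by embryo and without a test. In the reciprocal *sec* x *mau*, limma tests of its alleles and its hybrid total at stage 5 were left out too. In the crosses with *D. simulans* its alleles at stage 5 were compared in embryos labelled XX. For *sec* and *mau* at stage 5, shares and medians of all genes still include X-linked genes, tested in hybrids labelled XX, with replicate 4 among them. The autosomal members were tested in all 6 embryos of *mau* x *sec*. These include replicate 5, whose X was mixed, as described under Other observations. Stage markers went with the labels of the parental embryos. Of 13 early zygotic genes tested, such as *ftz* and *twi*, 13 were higher at stage 5 in each species, and 10 or 11 of 12 maternal genes, such as *osk*, were lower, with 1, *ea*, higher in *D. mauritiana*.

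The first question was how the 5 genes change between the maternal and the zygotic stage. *Hmr* and *gfzf* fell in all 3 species, *Lhr* and *Nup160* rose in all 3, and *Nup98-96* fell in *D. sechellia* and passed in neither of the other species. These were 13 calls in 15 tests, at an adjusted p of 0.05 in limma. Most genes passed this test, 84.8% of those tested in *D. simulans*, 84.4% in *D. mauritiana* and 82.4% in *D. sechellia*, and the median of all genes was 0.44, 0.51 and 0.50 above 0 on the log2 scale. Scaling by TMM factors moved these medians by −0.29, −0.37 and −0.36.

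*Hmr*, the X-linked member, had the largest change of the 5. In *D. simulans* its normalized value was 1376, 1458 and 1048 in the 3 embryos of stage 2 and 174, 133 and 115 at stage 5. In *D. mauritiana* it was 1423, 1736 and 1496, and then 472, 319 and 323. In *D. sechellia*, in the table with *D. simulans*, it was 1006, 1305 and 1303, and then 320, 299 and 263. The stages did not overlap in any species. The log2 change was −3.20 ± 0.21 (SE) in *D. simulans*, or 9.19-fold, with an adjusted p of 5.12e-08, and it was −2.08 ± 0.21 in *D. mauritiana* and −2.03 ± 0.18 in *D. sechellia*, with adjusted p of 2.54e-06 and 8.4e-07. The fall of *gfzf* was smaller, from 1061, 881 and 856 to 499, 358 and 413 in *D. simulans*, a log2 change of −1.14 ± 0.14. It was −0.87 ± 0.14 in *D. mauritiana* and −0.70 ± 0.12 in *D. sechellia*.

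*Lhr*, whose product works together with that of *Hmr*, changed the opposite way. It stood at 155, 130 and 141 at stage 2 and at 304, 272 and 268 at stage 5 in *D. simulans*, and at 89.2, 124 and 140 and then 290, 239 and 221 in *D. mauritiana*. In *D. sechellia* the 3 values were 121, 130 and 132 and then 344, 299 and 404. The rise came to 0.99 ± 0.17, 1.10 ± 0.17 and 1.44 ± 0.14 on the log2 scale, and in each species the lowest stage 5 embryo lay above the highest of stage 2.

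The 2 pore genes differed from each other. *Nup160*, part of the outer ring of the pore, rose from 1100, 1126 and 1013 to 2392, 2064 and 2389 in *D. simulans*, a log2 change of 1.08 ± 0.12. Its rise was 0.68 ± 0.13 in *D. sechellia* and 0.39 ± 0.12 in *D. mauritiana*, where the values were 1282, 1672 and 1498 and then 1992, 1890 and 1927. The rise in *D. mauritiana* lay under the median of all genes and lost its call with other scalings, at 0.02 with TMM factors and 0.20 with DESeq2 size factors. *Nup98-96*, whose transcript encodes both Nup98 and Nup96, went from 2612, 3277 and 3323 to 2387, 2082 and 1950 in *D. sechellia*, a log2 change of −0.52 ± 0.20 with an adjusted p of 0.0306. In *D. simulans* and *D. mauritiana* it was 0.36 ± 0.17 and 0.27 ± 0.17 higher at stage 5, with adjusted p of 0.0675 and 0.165. In each of the 3 species the order of the 5 log2 changes was thus *Hmr* lowest and *Lhr* or *Nup160* highest.

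**Figure D1:**
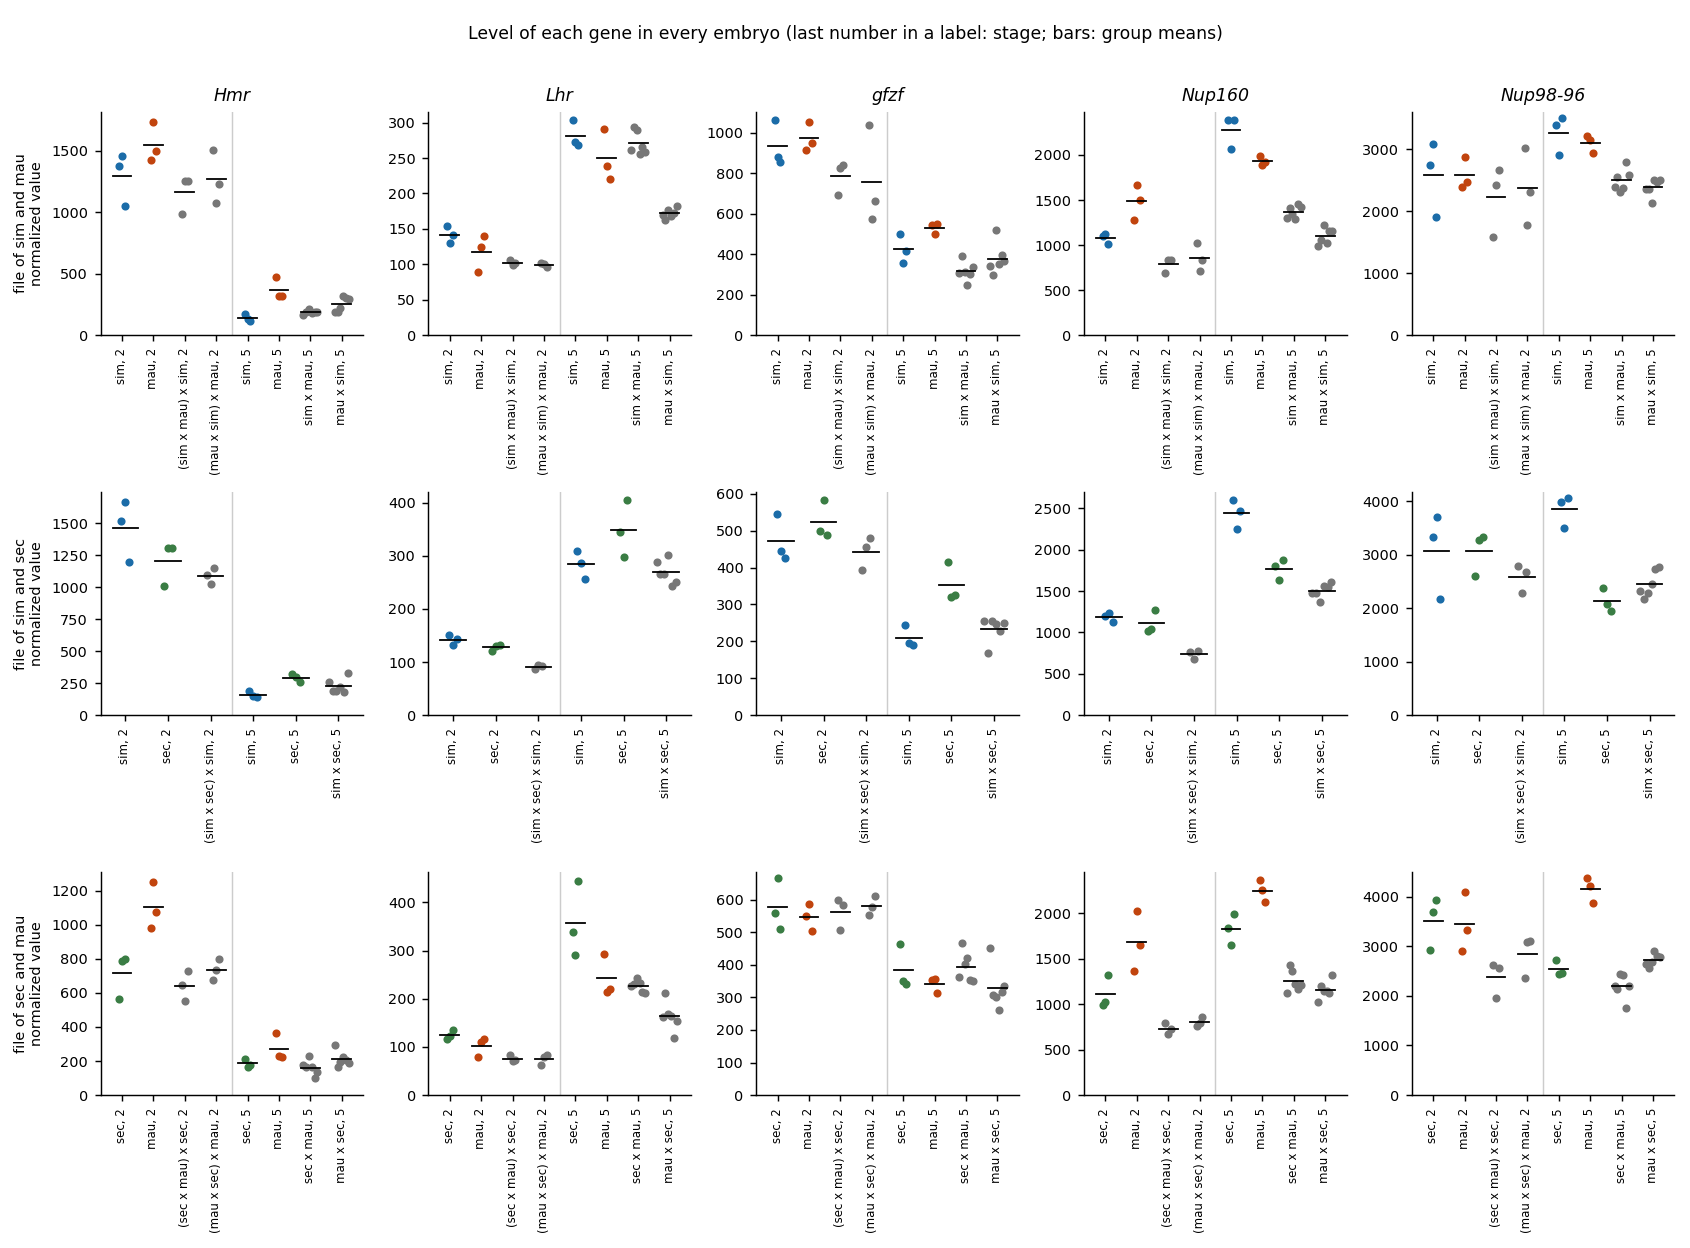
Normalized value of each gene (columns) in every embryo, by table (rows). Points are embryos, blue for *sim*, red for *mau*, green for *sec* and grey for hybrids (sum of both alleles), with the stage at the end of each label, and bars are group means; *Hmr* of *sec* and *mau* and *gfzf* of *sim* and *sec* come from the second mapping. *Hmr* fell from 1048 to 1458 at stage 2 to 115 to 174 at stage 5 in *sim*, and hybrid values of *Nup160* lie below those of the parents except at stage 2 of *sim* and *mau*, where 691 to 1021 in hybrids meets 1013 to 1672 in parents.

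How far the species differ was asked next, within each stage. At stage 2 few differences between species in the maternal RNA of these genes were called: 3 of 15 tests passed, all of them with *D. mauritiana* the higher species. The shares of all genes that passed were 42.5% between *sim* and *mau*, 33.6% between *sim* and *sec* and 41.9% between *sec* and *mau*. *Nup160* was lower in *sim* than in *mau*, by −0.45 ± 0.15 on the log2 scale with an adjusted p of 0.031, and lower in *sec* than in *mau*, by −0.58 ± 0.16 with an adjusted p of 0.012. The former call was lost when *sim* replicate 1, 2 or 3 or *mau* replicate 2 or 3 was left out, with differences from −0.48 to −0.36. *Hmr* was lower in *sec*, at 562, 787 and 800, than in *mau*, at 981, 1253 and 1077, by −0.63 ± 0.16 with an adjusted p of 0.00912, in the mapping to *D. mauritiana*, in which 43.2% of all genes passed. For *sim* against *mau* its difference was −0.27 ± 0.17 with an adjusted p of 0.212, and −0.58 ± 0.17 with an adjusted p of 0.0147 in the second mapping. That second mapping was also to *D. mauritiana*, and the *Hmr* call between *sec* and *mau* had no other mapping to be held against. Between *sim* and *sec* 0 of 5 members passed, also 0 at an unadjusted p of 0.05 and 0 by edgeR, where *gfzf* was tested in the mapping to *D. sechellia*, in which 29% of genes passed.

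At stage 5, 9 of 15 tests passed, against 58.3% of all genes for *sim* and *mau*, 52.4% for *sim* and *sec* and 46.7% for *sec* and *mau*. *Hmr* showed the largest difference. Its 174, 133 and 115 in *sim* lay under the 472, 319 and 323 of *mau*, a log2 difference of −1.39 ± 0.19 with an adjusted p of 7e-05. It was also lower in *sim* than in *sec*, at 188, 147 and 142 against 320, 299 and 263, by −0.89 ± 0.23 with an adjusted p of 0.0124. Between *sec* and *mau* the difference was −0.52 ± 0.22 with an adjusted p of 0.0756, in the mapping to *D. mauritiana*, in which 49.5% of genes passed. It passed with edgeR, at −0.58, and with a replicate block, at −0.52. The level at stage 5 was thus lowest in *sim*, while the order of *sec* and *mau* depended on the fit. *Hmr* is X-linked and the sex of the parental embryos is not labelled, so a difference in sex between the groups cannot be told apart from one between the species.

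The other stage 5 differences involved *D. sechellia* most. *Nup98-96* was lower in *sec* than in both relatives: 2387, 2082 and 1950 against 3985, 3507 and 4069 in *sim*, a log2 difference for *sim* minus *sec* of 0.85 ± 0.13 with an adjusted p of 0.000224, and −0.71 ± 0.12 for *sec* minus *mau* with an adjusted p of 0.00011. *sim* and *mau* differed by 0.07 ± 0.09 for this gene, with an adjusted p of 0.537. *Nup160* was likewise higher in *sim* than in *sec*, with 2602, 2249 and 2469 against 1805, 1628 and 1877, a difference of 0.46 ± 0.10 with an adjusted p of 0.00311. Its differences of 0.23 ± 0.09 between *sim* and *mau* and −0.30 ± 0.12 between *sec* and *mau* had adjusted p of 0.0394 and 0.0434, and both lost their calls in the second mapping, at 0.12 and −0.23. *gfzf* was lower in *sim* than in *sec*, at 245, 195 and 190 against 414, 321 and 325 in the mapping to *D. sechellia*, by −0.75 ± 0.18 with an adjusted p of 0.00621, and 45.1% of genes passed there. *Lhr* was higher in *sec* than in *mau* by 0.55 ± 0.18, with an adjusted p of 0.0206, which the second mapping gave as 0.42 with an adjusted p of 0.0964. For *sim* minus *sec* it was −0.29 ± 0.13 with an adjusted p of 0.0889, and −0.67 with an adjusted p of 0.0064 in the second mapping.

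Whether hybrids held as much of each transcript as the parents was tested by setting their total against the mean of both parental species. Of 48 tests 25 passed, all of them with hybrids lower, and 43 of the 48 values were below 0. Across all genes, by contrast, higher and lower calls were close to balanced, for instance 28.5% and 26.3% in *mau* x *sim*. The shares of all genes that passed at stage 2 were 39.6% in (*sim* x *mau*) x *sim*, 35.9% in (*mau* x *sim*) x *mau*, 30.5% in (*sim* x *sec*) x *sim* (31% in the mapping to *D. sechellia*), 53.3% in (*sec* x *mau*) x *sec* and 56.8% in (*mau* x *sec*) x *mau*, and in the mapping to *D. mauritiana* used for *Hmr* the last values were 53.9% and 56.8%. At stage 5 they were 57.8% in *sim* x *mau*, 54.8% in *mau* x *sim*, 46.7% in *sim* x *sec* (47.6% in the mapping to *D. sechellia*), 54.6% in *sec* x *mau* and 54.9% in *mau* x *sec*. The parental embryos were collected and sequenced for an earlier study, so hybrid and parent cannot be told apart from one study and the other, and the crosses of a pair share the same parental embryos.

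*Nup160* was lower in all 10 crosses, by 0.46 to 0.93 on the log2 scale, or 1.38-fold to 1.91-fold, and the call held under every alternative setting and with any embryo left out. The 12 hybrids of *sim* and *mau* at stage 5 lay between 991 and 1454, under the lowest parental embryo at 1890. Those of *sec* and *mau* lay between 1024 and 1433 against 1648 to 2368 in the parents, and the 6 embryos of *sim* x *sec* between 1366 and 1604 against 1628 to 2602. At stage 2 the 6 embryos from hybrid mothers of *sec* and *mau* lay between 669 and 854, under 995 to 2028 in the parents. The largest differences were −0.93 ± 0.07 in *mau* x *sim* at stage 5 and −0.90 ± 0.14 in (*sec* x *mau*) x *sec* at stage 2, with adjusted p of 9.28e-09 and 0.000566.

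*Lhr* was lower in 7 of 10 crosses. The clearest was *mau* x *sec*, where 163, 212, 168, 164, 119 and 154 stood under 213 to 444 in the parents, a difference of −0.85 ± 0.13 with an adjusted p of 4.2e-05. In *mau* x *sim* the 6 embryos lay between 163 and 182, against 221 to 304 in the parents, a difference of −0.62 ± 0.07 with an adjusted p of 1.67e-06. The reciprocal cross *sim* x *mau*, at 255 to 294, did not pass, at 0.03 ± 0.07. The weakest of the 7 calls was that of (*mau* x *sim*) x *mau*, at −0.37 ± 0.13 with an adjusted p of 0.0437, which held in 2 of 12 fits that left out 1 embryo, with values from −0.39 to −0.30 in the others, and was lost with TMM factors (−0.35), edgeR (−0.36), no minimum and a replicate block (both −0.37). The call of *sec* x *mau*, at −0.36 ± 0.13 with an adjusted p of 0.0279, was lost with TMM factors (−0.31), in XX embryos alone (−0.40), with a replicate block (−0.26) and when *sec* replicate 3, *mau* replicate 1 or *sec* x *mau* replicate 5 or 6 was left out (−0.34 to −0.27). *Hmr*, by contrast, passed in 1 of 8 tests, in (*sec* x *mau*) x *sec*, by −0.46 ± 0.14 with an adjusted p of 0.0175.

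*gfzf* passed in 2 of 10 tests, both at stage 5 between *sim* and *mau*, at −0.59 ± 0.13 in *sim* x *mau* and −0.34 ± 0.13 in *mau* x *sim*. The latter call held in 11 of 18 fits that left out 1 embryo and was lost on recovered reads, at −0.28. *Nup98-96* passed in 5, with values from −0.57 to −0.25, and was below 0 in all 10. Other pore genes moved both ways. Of 20 tested genes from a list of 28 pore components, between 2 and 9 were lower and between 1 and 6 higher in a cross, with medians between −0.16 and 0.03 on the log2 scale. *Gp210* and *Nup154*, both pore components, were among the lower ones, at −1.03 ± 0.08 in *sim* x *mau* and −0.88 ± 0.14 in (*sim* x *mau*) x *sim*, whereas *Sec13*, which the pore shares with vesicle coats, was higher in *mau* x *sec*, at 1.73 ± 0.13. *Nup44A*, one of the genes listed at 0 in *D. simulans* parents, is among the higher ones in (*sim* x *sec*) x *sim* and *sim* x *sec*, where its parental level is not measured.

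**Figure D2:**
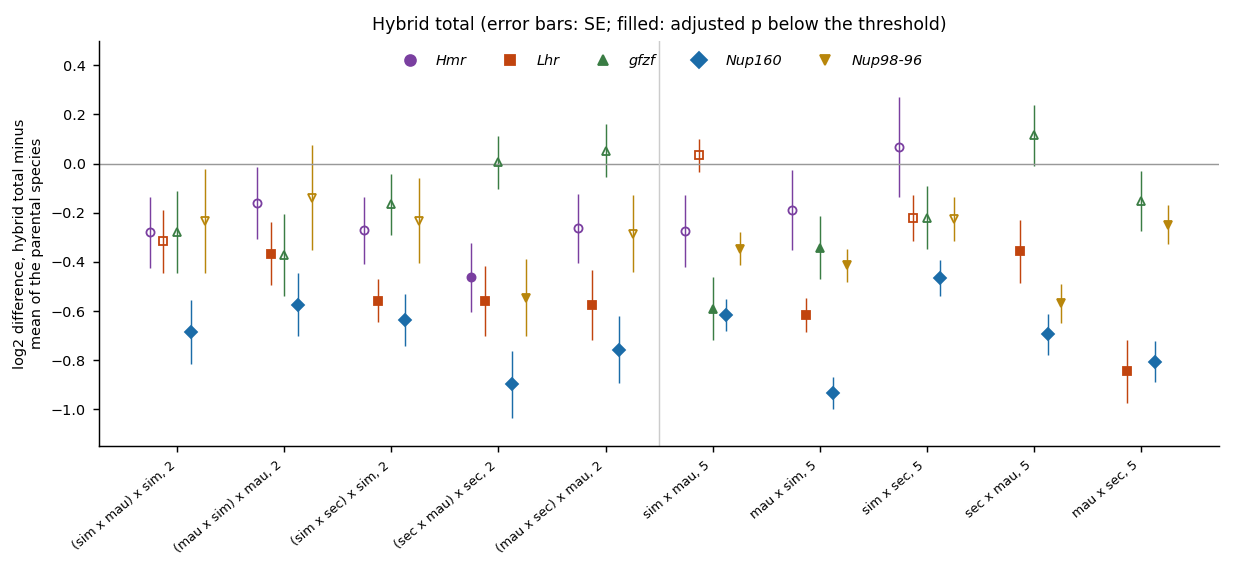
Difference between the total of hybrids and the mean of both parental species (log2, with SE) for each gene in each cross, with the stage at the end of the label. Filled symbols passed the test and open symbols did not. *Nup160* is below 0 in all 10 crosses, by 0.46 to 0.93, and *Lhr* in 9 of 10.

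The share of each allele was then compared within hybrid embryos, where both alleles meet the same cells. At stage 2 the RNA of hybrid mothers held both alleles of every member in similar amounts, the allele of the grandmother's species making up 42.8% to 61.7% of the pooled reads of a cross, with 15 of 25 tests passing. The shares of all genes that passed were 35.2% in (*sim* x *mau*) x *sim*, 36.1% in (*mau* x *sim*) x *mau*, 38.2% in (*sim* x *sec*) x *sim*, 48.3% in (*sec* x *mau*) x *sec* and 49.8% in (*mau* x *sec*) x *mau*. For *Hmr* in the last pair of crosses they were 47.3% and 49.2%, in the mapping to *D. mauritiana*.

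The genome to which reads were mapped moved these shares. In 22 of 22 comparisons at stage 2 and 22 of 22 at stage 5, the log2 allele ratio was lower, toward the species mapped to, in the second mapping, with a median shift of −0.18 at stage 2. The median allele ratio of all genes in (*sec* x *mau*) x *sec* was 0.09 in the mapping to *D. sechellia* and −0.06 in that to *D. mauritiana*. *Nup98-96*, with a median shift of −0.09, moved least, and *Hmr* and *Lhr*, with −0.42 and −0.38, moved most.

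**Figure D3:**
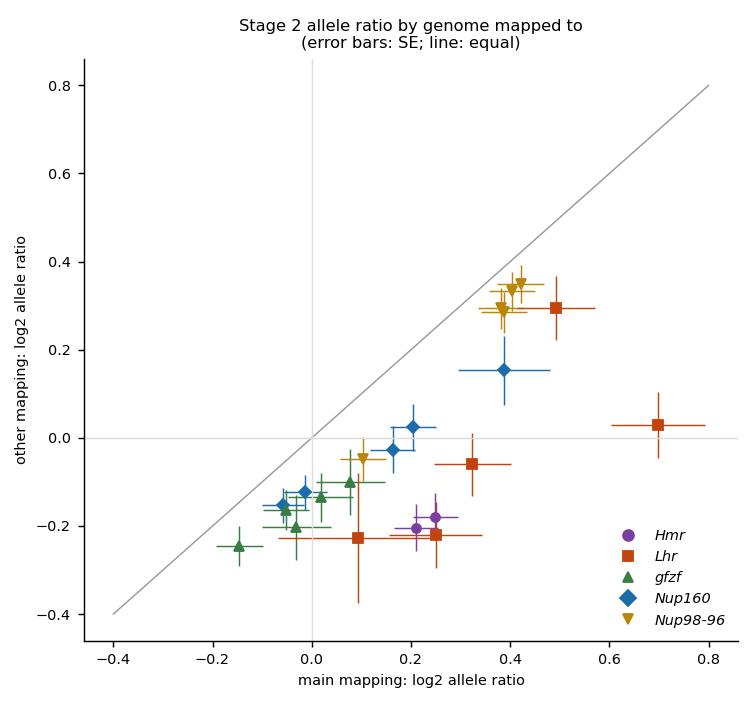
Log2 allele ratio at stage 2 (first over second species of the pair) in the main mapping (x axis) and in the second mapping (y axis), with SE, for each member and cross that has values in both. All 22 points lie below the line of equality, and the 4 *Nup98-96* points of the crosses with *mau* stay between 0.29 and 0.35 on the y axis.

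*Nup98-96* was the one member with an allele difference at stage 2 that held in both mappings in all 4 crosses with *D. mauritiana*. In (*sim* x *mau*) x *sim* the *sim* and *mau* alleles stood at 900 and 680, 1407 and 1012, and 1486 and 1180 in the 3 embryos, a *sim* share of 56.8% (95% interval 55.9% to 57.8%, counting error only). In (*mau* x *sim*) x *mau* the *mau* share was 42.8%, and it was 43.3% in (*mau* x *sec*) x *mau*, while the *sec* share in (*sec* x *mau*) x *sec* was 56.7%. The *mau* allele was thus the lower one in each of the 12 embryos, whichever species had been the grandmother's. The log2 ratio over the *mau* allele was 0.40, 0.42, 0.38 and 0.39, each ± 0.05, with adjusted p of 0.00145 to 0.00217, and 0.29 to 0.35 in the second mapping. Between *sim* and *sec* it was 0.10 ± 0.05 with an adjusted p of 0.165. The parental embryos of stage 2 differed by −0.02 ± 0.25 between *sim* and *mau* and 0.03 ± 0.18 between *sec* and *mau* for this gene. The test of its allele ratio against the parental difference, described below, passed in 0 of 5 crosses at stage 2, with values of 0.13 to 0.44. A departure of the alleles from the species difference was therefore not shown.

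For *Hmr* the direction depended on the genome. Mapped to *D. simulans*, the alleles in (*sim* x *mau*) x *sim* were 535 and 454, 668 and 591, and 673 and 579, with *sim* higher in every embryo, and a log2 ratio of 0.21 ± 0.05. Mapped to *D. mauritiana* the same embryos gave 257 and 293, 340 and 402, and 344 and 390, with *mau* higher in every embryo, and a ratio of −0.20 ± 0.05. Both passed the test, with adjusted p of 0.0163 and 0.0338, and the reciprocal cross gave 0.25 ± 0.05 and −0.18 ± 0.05. No direction can be given for *Hmr* between *sim* and *mau* at stage 2. In the mapping to *D. mauritiana* alone the *sec* allele was lower than the *mau* allele, by −0.33 ± 0.05 and −0.31 ± 0.05, and in that to *D. simulans* alone the *sim* allele was higher than the *sec* allele, by 0.49 ± 0.06 with an adjusted p of 0.0113. Each of these 2 ratios favoured the species mapped to and had no second mapping to be held against.

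Calls for *Lhr* and *Nup160* also depended on the mapping. The *sim* allele of *Lhr* was higher than that of *mau* by 0.49 ± 0.08 in (*sim* x *mau*) x *sim*, at 61.6 against 37.8 in replicate 2 and 56.8 against 45.6 in replicate 3, and the second mapping still gave 0.30 ± 0.07 with an adjusted p of 0.0289. In (*mau* x *sim*) x *mau* the values were 0.32 ± 0.08 and −0.06 ± 0.07, and in (*sec* x *mau*) x *sec* 0.70 ± 0.09 and 0.03 ± 0.08. *Nup160* gave 0.16 ± 0.05 and 0.20 ± 0.05 for *sim* over *mau*, and −0.03 and 0.02 in the second mapping. For *sim* over *sec* it gave 0.39 ± 0.09 with an adjusted p of 0.0451, and 0.15 ± 0.08 in the second mapping. For *sec* over *mau* it passed in the second mapping and not in the main one, at −0.15 ± 0.04 against −0.06 ± 0.04 in (*sec* x *mau*) x *sec* and −0.12 ± 0.04 against −0.01 ± 0.04 in (*mau* x *sec*) x *mau*. The 3 calls of *Nup160* in the main mapping held in 6 of 12, 9 of 12 and 6 of 9 fits that left out 1 embryo, and the *Lhr* call of (*mau* x *sim*) x *mau* in 9 of 12. *gfzf* passed in 0 of 5 crosses in the main mapping. At an unadjusted p of 0.05 it passed in 1, (*mau* x *sim*) x *mau*, where the ratio was −0.15 ± 0.05 with an adjusted p of 0.0568, and edgeR called the same 1. In the second mapping it passed in both crosses of *sim* and *mau*, at −0.16 and −0.25.

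At stage 5 an embryo's RNA can come from its mother as well as from its own genome, and the allele of the mother's species was mostly the higher one. Of 23 tests 19 passed, 12 with a ratio above 0 and 7 below, in each case in favour of the mother's allele. Allele differences, in either direction, were common to most genes: 77.3% of all genes passed in *sim* x *mau*, 71.8% in *mau* x *sim*, 76.5% in *sim* x *sec*, 71.6% in *sec* x *mau* and 73.6% in *mau* x *sec*. The 4 tests that did not pass were *Lhr* in *mau* x *sim* and *mau* x *sec*, at −0.02 ± 0.08 and 0.05 ± 0.12, and *Hmr* in *sim* x *mau* and *sim* x *sec*, at 0.33 ± 0.15 and 0.20 ± 0.11. In the second mapping *Lhr* passed in both, at −0.23 ± 0.09 and −0.58 ± 0.11, and no longer passed in *sim* x *sec*, where 0.51 ± 0.07 became 0.15 ± 0.09. *Hmr* in *sim* x *mau* was −0.17 ± 0.17 there, while edgeR called it in the main mapping, at 0.32.

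*gfzf*, whose RNA fell between the stages, had a maternal share above those of the other members in *mau* x *sim*, *sec* x *mau* and *mau* x *sec*, leaving *Hmr* aside in the last pair, and under that of *Nup160* in *sim* x *mau* and *sim* x *sec*. In *sec* x *mau* the *sec* and *mau* alleles stood at 314 and 47.7, 395 and 73.8, 351 and 50.2, 372 and 47.5, 311 and 41.4, and 278 and 73.0 in the 6 embryos. All 6 had the *sec* allele at several times the *mau* allele. The maternal share was 85.6% there, 79.1% in *mau* x *sec*, 81.4% in *mau* x *sim*, 68.2% in *sim* x *mau* and 64.6% in *sim* x *sec*. *Nup160*, whose RNA rose, was maternal by 76.0% in *sim* x *mau*, 66.0% in *mau* x *sim*, 78.7% in *sim* x *sec*, 73.1% in *sec* x *mau* and 73.8% in *mau* x *sec*. Its alleles in *sim* x *mau* were 998 and 304, 1095 and 312, 1067 and 279, 977 and 309, 1028 and 426, and 1068 and 357. For *Nup98-96* the maternal share was 58.8%, 73.5%, 69.3%, 64.8% and 75.2% in the same order of crosses, highest where *D. mauritiana* was the mother. *Lhr* stood at 60.0%, 50.1%, 58.6%, 68.7% and 48.7%, nearest to equal where *D. mauritiana* was the mother, but only in the main mapping. The second mapping gave 55.2%, 53.8%, 52.3%, 60.4% and 59.6% for *Lhr*, nearest to equal in *sim* x *sec*.

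Reciprocal crosses hold the same pair of alleles, and their allele ratios were subtracted, a test added after the data had been seen. At stage 5, 5 of 5 members between *sim* and *mau* and 4 of 4 between *sec* and *mau* differed, against 72.4% and 69.6% of all genes. Between *sim* and *mau* the log2 ratio differed between the crosses by 3.23 ± 0.15 for *gfzf*, 2.63 ± 0.13 for *Nup160*, 2.00 ± 0.13 for *Nup98-96*, 1.99 ± 0.23 for *Hmr* and 0.56 ± 0.11 for *Lhr*, where the median of all genes was 1.39. Between *sec* and *mau* the order was the same, with 4.44 ± 0.21 for *gfzf*, 2.96 ± 0.13 for *Nup160*, 2.51 ± 0.14 for *Nup98-96* and 1.10 ± 0.17 for *Lhr*, against a median of 2.23. *Lhr* thus lay under the median of all genes in both pairs. At stage 2, where all RNA comes from mothers with both alleles, 0 of 5 and 0 of 5 members differed between reciprocal crosses. Of these, 1, *Lhr* between *sec* and *mau* at 0.45 ± 0.13, had an unadjusted p under 0.05, and edgeR called 0. The shares of all genes were 0.0179% and 0%, and 0% in the mapping to *D. mauritiana* used for *Hmr*.

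**Figure D4:**
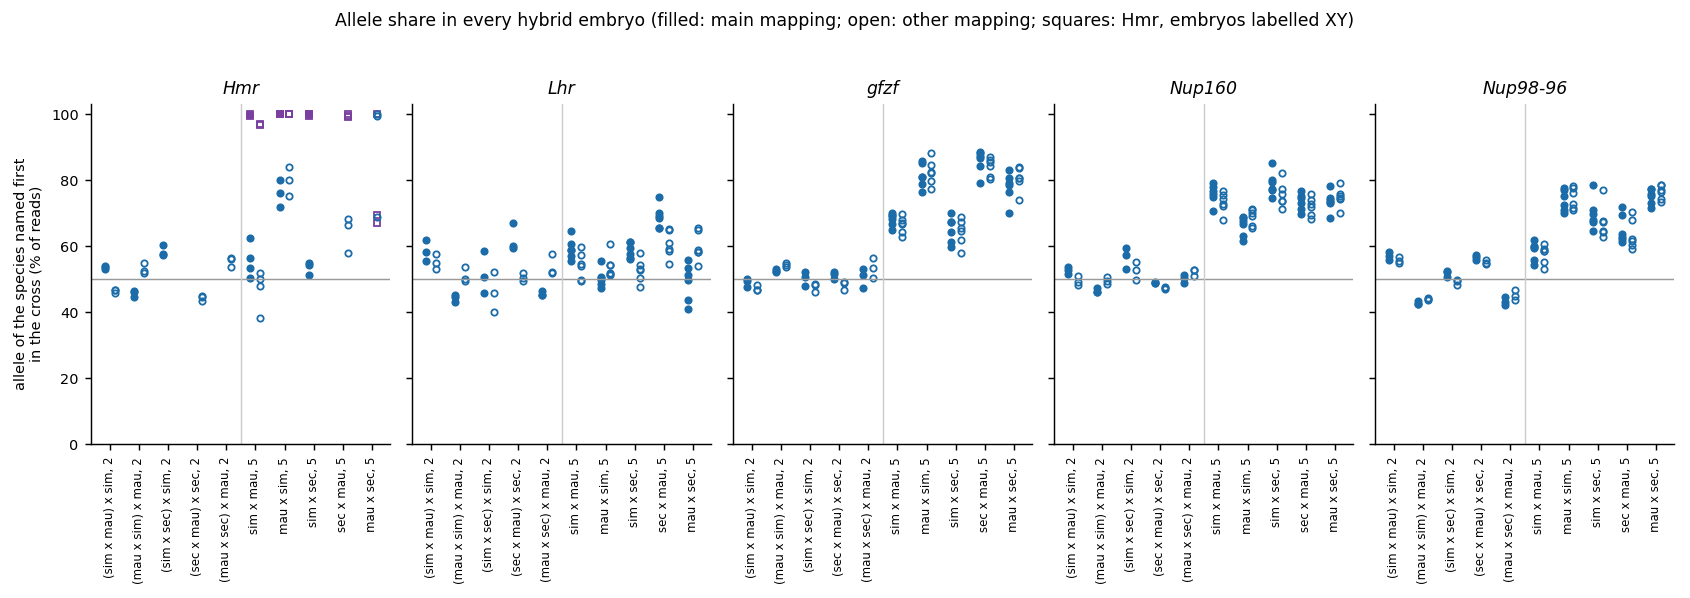
Percent of reads from the allele of the species named first in the cross, for each hybrid embryo and gene, with the stage at the end of the label. Filled symbols are the main mapping, open symbols the second, and squares mark *Hmr* in embryos labelled XY; stage 2 embryos lie between 40.2 and 67.0, both ends being *Lhr*, and the stage 5 values of *gfzf* and *Nup160* at 57.9 or higher.

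Allele values in hybrids were also set against the level of the same species in parental embryos of the same table. At stage 5 the maternal allele of *Nup160* stood at 37.7% to 50.4% of the parental level over the 5 crosses, and the paternal allele at 14.8% to 17.9%. In *sim* x *mau* the *sim* allele was 1039 ± 45.6 (SD, n = 6) against 2282 ± 188 (n = 3) in *sim* embryos, and the *mau* allele was 331 ± 52.8 against 1936 ± 51.3. The paternal allele of *gfzf* lay at 16.3% to 23.6% of the parental level and the maternal one at 50.8% to 87.4%. *Lhr* had 23.5% to 44.1% for the paternal and 32.9% to 57.1% for the maternal allele. At stage 2 the alleles of *Nup160* stood at 24.0% to 38.5% for the species of the mother's mother and 22.1% to 42.5% for the other. These percentages are descriptions and were not tested, beyond the tests of totals and ratios given here.

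Finally the allele ratio in hybrids was tested against the difference between the parental species, which asks whether the alleles differ within an embryo as the species do. At stage 2, 4 of 25 tests passed. They were *Nup160* in (*sim* x *mau*) x *sim* and (*mau* x *sim*) x *mau*, with the hybrid ratio higher by 0.61 ± 0.13 and 0.66 ± 0.13, and *Hmr* in the same crosses, by 0.48 ± 0.16 and 0.52 ± 0.16. For *Nup160* in the main mapping the *sim* embryos had been lower than the *mau* embryos by −0.45. Its *sim* allele was above the *mau* allele by 0.16 and 0.20. In the second mapping the species difference was −0.59, and the allele ratios of −0.03 and 0.02 did not pass. The *Nup160* calls against the parental difference held there, at 0.56 and 0.61, with adjusted p of 0.0278 and 0.0209. In the main mapping the adjusted p were 0.00877 and 0.00751 for *Nup160* and 0.0433 and 0.0336 for *Hmr*. The *Hmr* calls did not hold in the second mapping, at 0.37 and 0.40, and held in 2 and 7 of 12 fits that left out 1 embryo. The shares of all genes that passed were 26.9% and 26% in these crosses. In (*sim* x *sec*) x *sim* 0 of 5 members passed (0 at an unadjusted p of 0.05, 0 by edgeR), against 10.8% of genes, or 4.19% in the mapping to *D. sechellia*. In (*sec* x *mau*) x *sec* and (*mau* x *sec*) x *mau* 0 of 5 passed in each (1 at an unadjusted p of 0.05, 0 by edgeR), against 12.6% and 11.8% of genes, or 10.6% and 11.1% in the mapping to *D. mauritiana*.

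At stage 5, 17 of 23 tests passed, and the shares of all genes were 63.9% in *sim* x *mau*, 56.8% in *mau* x *sim*, 59.8% in *sim* x *sec* (52.2% in the mapping to *D. sechellia*), 57.2% in *sec* x *mau* and 53.3% in *mau* x *sec*. *gfzf* and *Nup160* passed in all 5 crosses, each time with more of the mother's allele than the species difference, from 1.19 to 2.44 on the log2 scale in either direction. For *Hmr* 1 of the reciprocal crosses passed and the other did not. In *sim* x *mau* the *sim* allele stood at 92.1, 109, 95.6 and 119 and the *mau* allele at 70.9, 107, 83.2 and 71.0 in the 4 XX embryos, a near balance where the species differ by −1.39, so that the ratio was 1.73 ± 0.29 above the parental difference, with an adjusted p of 0.000258. In *mau* x *sim* the alleles were 52.5 and 134, 44.1 and 142, and 44.3 and 177, a ratio of −1.66 ± 0.17, which was −0.27 ± 0.30 from the parental difference, with an adjusted p of 0.474. These *Hmr* tests set XX hybrids against parental embryos of unlabelled sex. A difference in sex between the parental groups cannot be told apart from one between the species. *Lhr* passed in 1 of 5 crosses, *sim* x *sec*, at 0.80 ± 0.16 with an adjusted p of 0.00147, and in the second mapping also in *mau* x *sec*, at −0.99 ± 0.27. *Nup98-96* passed in 4 of 5, at 0.43 ± 0.18 in *sim* x *mau*, −1.58 ± 0.18 in *mau* x *sim*, 1.62 ± 0.20 in *sec* x *mau* and −0.89 ± 0.20 in *mau* x *sec*. Its call in *sim* x *mau* was lost with TMM factors (0.35), with no minimum and with all embryos for X-linked genes (both 0.43). With separate weights for parental embryos and hybrid ratios, an alternative chosen after the data had been seen, 23 of the 48 tests passed in place of 21.

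**Figure D5:**
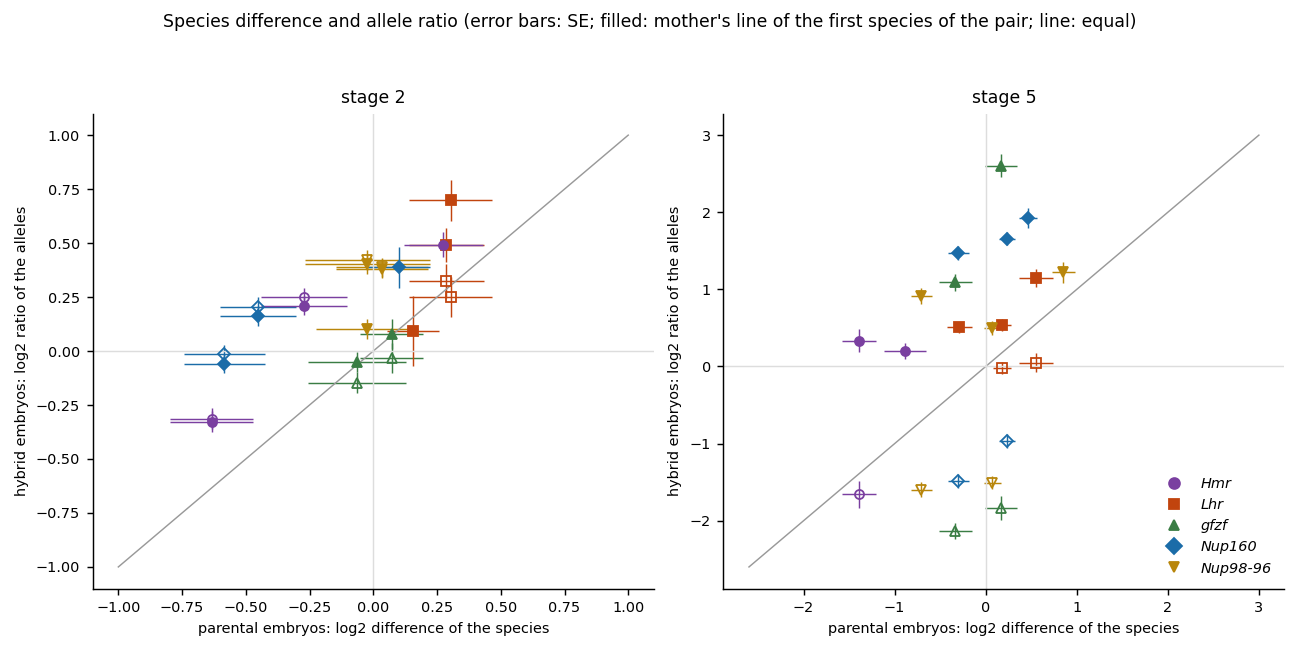
Log2 difference between the species in parental embryos (x axis) and log2 ratio of their alleles in hybrids (y axis), with SE, by stage. Filled symbols are crosses whose maternal line is the first species of the pair, open symbols the reciprocal. *gfzf* of *sim* and *sec* is left out, since its parental values come from the second mapping only. *Hmr* of *sec* and *mau* is left out at stage 5, where its alleles were not tested. At stage 5 *gfzf*, *Nup160* and *Nup98-96* are above the line in filled and below it in open symbols, whereas *Hmr* in *mau* x *sim* lies near it.

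*Hmr* was also compared between embryos labelled XX and XY. In embryos labelled XY of *sim* x *mau*, *mau* x *sim*, *sim* x *sec* and *sec* x *mau* the paternal allele had 0 or 1 read. The XY embryos of *mau* x *sim* had totals of 317, 304 and 291, all from the *mau* allele, above the 187, 186 and 221 of XX embryos. In *sec* x *mau* the XY totals of 174, 167 and 227 were above the XX totals of 164, 102 and 138. In *sim* x *mau* and *sim* x *sec* the groups overlapped, with 192 and 192 against 163 to 215, and 192 to 256 against 184 to 327. Exact two-sided permutation tests gave p of 0.1, 0.1, 0.667 and 1, or 0.2, 0.2, 0.889 and 1 adjusted over the 4 crosses, where 3 against 3 embryos cannot give a p under 0.1, nor the 4 against 2 of *sim* x *mau* one under 0.0667. In XX embryos the paternal share of *Hmr* reads was 20% to 28.1% in *mau* x *sim*, 31.8% to 41.9% in *sec* x *mau*, 37.4% to 49.6% in *sim* x *mau* and 45.0% to 48.8% in *sim* x *sec*. In *mau* x *sec*, where labels were in doubt, the *sec* and *mau* alleles of replicates 1 to 6 were 0 and 295, 50.6 and 116, 64.7 and 131, 0 and 226, 1.31 and 207, and 59.5 and 131, so that the paternal allele was present in replicates 2, 3 and 6 and at or near 0 in the others.

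Related genes were counted beside the members, from a list of pore components and one of partners of the HMR and LHR proteins. Of 20 pore genes tested, 15 were higher and 2 lower in *sim* than in *mau* at stage 5, where 26.9% of all genes were higher and 31.4% lower, with a median of 0.54 against −0.06 for all genes, and *Nup44A* and *Nup205* differed most, at 1.37 ± 0.08 and 1.28 ± 0.12. Between *sec* and *mau* 6 were higher and 7 lower, where 20.9% and 25.8% of all genes were. From stage 2 to stage 5, 15, 14 and 10 were higher in *sim*, *mau* and *sec*, and 2 lower in each, where 50.4%, 51.2% and 50.2% of all genes were higher, with *Nup50* at 1.90, 1.89 and 1.98. In *sim* x *mau* 20 of 20 had more of the maternal allele, as had 72.4% of all genes, with a median of 1.78 against 0.93 for all genes, and 16 of 20 did in *mau* x *sim*, against 61.3%. Of 8 partner genes tested, 4 were higher and 2 lower in *sim* than in *mau* at stage 5, 2 higher and 3 lower in *sim* than in *sec*, and 2 higher and 1 lower in *sec* than in *mau*, where 58.3%, 52.4% and 46.7% of all genes passed. The centromeric histone gene *cid* was higher by 2.12 ± 0.24 for *sim* over *mau* and by 2.87 ± 0.61 for *sec* over *mau*, and *BEAF-32*, an insulator protein gene, was lower by −1.41 ± 0.17 in *sim* than in *sec*. In hybrids at stage 5 *Df31* and *Nlp*, both coding for chromatin proteins, had much more of the maternal allele, with log2 ratios of 5.58 ± 0.10 and 4.12 ± 0.09 in *sim* x *mau*, while *cid* had more of the paternal allele, at −0.66 ± 0.14.

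By correlation of log2 totals over the embryos of a table, averaged over the 3 tables and among 5713 genes, the genes most like each member were *CG16953* and *rost* for *Hmr* (Pearson r 0.97 and 0.97), *gny* and *nxf2* for *Lhr* (0.96 and 0.96), *CG9384* and *gek* for *gfzf* (0.92 and 0.92), *pea* and *CG17612* for *Nup160* (0.94 and 0.91) and *mu2* and *puf* for *Nup98-96* (0.80 and 0.79). These embryos share stage and scaling, and the values are descriptions.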

How the data were processed

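Single-embryo mRNA-seq of 63 embryos was analysed from 3 deposited tables, 1 per species pair. In the deposited tables a signal value gives, for 1 allele of a gene, the reads that the authors placed at sites differing between the species, after upper quantile scaling. The submitters' processing notes name cutadapt 1.7.1, TopHat2 2.0.13 and GATK. Values were whole multiples of a step: 100% lay within 0.01 of whole reads in 162 combinations of embryo, table and mapping. Columns without a sample numbered 0.

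Tests were two-sided with limma 3.58.1 (R 4.3.3) on log2(value + 1), fold changes being on that scale, for genes with a mean of at least 5, with Benjamini-Hochberg adjustment over all genes and a threshold of 0.05. An allele ratio was taken per embryo. Allele shares came from recovered reads with 95% beta intervals (prior 0.5), which cover counting error only. Alternatives were edgeR 4.0.16 on recovered reads, TMM and DESeq2 1.42.0 size factors, other minima (0 or 20) and pseudocounts (0.5 or 5), the second mapping, a replicate block, other sets of embryos by sex and leaving out each embryo. On recovered reads edgeR called 1920 to 2427 genes between species at stage 2 and 2781 to 3806 at stage 5. The tests were also run on simulated data with a fixed spread and a fixed size of change. That simulation held no mapping bias, no wrongly assigned reads and no difference between studies, so it does not bear on these limits. Replicates are single embryos, and nothing states whether they came from separate parents, so p-values measure the spread between embryos.

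Every member was named in every comparison. Of the pore and partner lists, at most the 2 largest increases and decreases past the threshold were named, and of similar genes the 2 with the highest mean correlation. The members and lists were chosen with earlier results of these data known.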

Additional observations from a re-analysis of the deposited data

Results flagged for a closer look

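The ratio of the alleles at stage 5 differed between reciprocal crosses for every member tested, by a test of the difference itself (limma, adjusted over all genes). Of all genes 72.4% between *sim* and *mau* and 69.6% between *sec* and *mau* passed the same test, with medians of 1.39 and 2.23, and *Lhr* lay under both. Between *sim* x *mau* and *mau* x *sim* the log2 ratio of *sim* to *mau* differed by 3.23 for *gfzf* (adjusted p 1.32e-09), 1.99 for *Hmr* (0.000143), 0.56 for *Lhr* (0.000614), 2.63 for *Nup160* (1.54e-09) and 2.00 for *Nup98-96* (2.06e-08). Between *sec* x *mau* and *mau* x *sec* it differed by 4.44 for *gfzf* (1.14e-09), 1.10 for *Lhr* (8.1e-05), 2.96 for *Nup160* (5.09e-10) and 2.51 for *Nup98-96* (6.59e-09). In each case an allele had a larger share in the cross where its species was the mother than in the reciprocal cross. Within *mau* x *sec* the mother's allele of *Lhr* was not the larger one, at 48.7% of reads in the main mapping. No embryo stood apart from the other 5 of its cross for any member by Dixon's test, in 45 groups.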

How the results depend on the processing

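The counts of members past the threshold stayed within 1.5 times the main count in every comparison and setting, and leaving out 1 embryo at a time gave 31 to 35 calls for allele differences, 19 to 24 for allele ratios against the parental ratio, 23 to 26 for hybrid totals, 9 to 12 for species differences and 12 to 14 for stage changes. Single values changed most with the genome mapped to. Among allele ratios that passed in either mapping, the sign changed in the second mapping for 5, and the cause was not tested. They were *Hmr* in (*mau* x *sim*) x *mau* (−0.18) and (*sim* x *mau*) x *sim* (−0.20), and *Nup160* in (*sim* x *mau*) x *sim* (−0.027). *Lhr* changed sign in (*mau* x *sim*) x *mau* (−0.06) and, at stage 5, in *mau* x *sec* (−0.58). Ratios that passed in neither mapping also changed sign, with *Hmr* in *sim* x *mau* at stage 5 (−0.17) among them. In that mapping 9 further calls were lost and 11 gained. On recovered reads edgeR lost 6 calls and gained 6. With the replicate block 11 species differences, 22 hybrid totals and 13 stage changes passed, in place of 12, 25 and 13. Correlations of deviations between same-numbered embryos ran from −0.38 to 0.47, and 21 of 96 were over 0.1. Whether the numbers pair embryos was not tested further. Leaving out the 148 genes listed at 0 in *D. simulans* embryos, a check added after seeing the data, changed 0 of 24 calls, and lowered the share of genes called between *sim* and *sec* to 31.5% and 51.1%.

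At stage 2 depth limits *Lhr* most. Its allele calls rested on 371 to 475 reads per cross in the main mapping, where the other members had at least 2754. At stage 5 it limits *Hmr*, whose alleles in XX embryos rested on 383 to 545 reads per cross with *D. simulans*, against 686 to 1326 for *Lhr*. In XX embryos of *sec* x *mau*, mapped to *D. mauritiana*, *Hmr* had 287 reads.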

Other observations

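In *mau* x *sec*, replicate 5 of stage 5, labelled XX, was mixed along the X chromosome. The *sec* share of reads from X-linked zygotic genes was 0.67% from 0 to 4 Mb of the *D. mauritiana* X, 3.52% from 4 to 8 Mb, 15.6% from 8 to 12 Mb and 1.99% from 12 to 14 Mb, and then 48.9%, 51.2% and 49.2% beyond 14 Mb. *Hmr*, at 9.77 Mb, had 1 paternal read and 158 maternal reads in this embryo. In replicate 6 of the same label the share was 45.5% to 56.3% over the same stretches, and in replicate 4, also labelled XX, 0.25% to 1.94%. The stretches hold 5 to 20 genes each, and these values are descriptions. Replicate 5 was kept in the *mau* x *sec* tests of the autosomal members. Whether its autosomes are those of a direct cross of the species was not tested.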
